A study of Mus musculus with 30 samples.

Results

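GABA, the main inhibitory transmitter of the adult brain, is made from glutamate, packed into vesicles, released onto ion channel and G protein-coupled receptors, taken back up by neurons and astrocytes and broken down. The genes described here carry out these steps. All 28 listed genes had a mean level of at least 0.5 CPM (a gene's counts scaled to a library total of 1 M, or mega, counts), out of 55401 gene IDs in the count table, and all 28 entered the tests. They comprised 4 enzymes of synthesis and breakdown, 3 transporters, 12 subunits of ionotropic receptors, 2 GABA-B subunits, 5 genes of scaffold, adhesion and trafficking, and 2 chloride transporters.

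Poly(A) RNA was sequenced from tissue punches of the left and right nucleus accumbens of 30 male C57Bl/6J mice, 1 library a mouse. Surgery was tibial SNI (spared nerve injury, which leaves lasting neuropathic pain) or sham. Starting 4 weeks later, mice were injected intraperitoneally, 2 times a day for 3 weeks, with saline, tianeptine at 30 mg/kg or desipramine at 15 mg/kg. Both drugs are antidepressants: tianeptine is an agonist at mu opioid receptors, and desipramine, a tricyclic, inhibits the noradrenaline transporter. Sham groups held 5 saline, 6 tianeptine and 4 desipramine mice, and SNI groups held 5, 6 and 4 in the same order, with sham saline as the study's control. Ages were not found in the labels, and a punch holds whatever cells lie inside it.

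The accumbens is unusual in that most of its neurons, the medium spiny neurons, are themselves GABAergic. They receive fast inhibition through GABA-A receptors, which are pentamers of alpha, beta and other subunits, and slower inhibition through the GABA-B heterodimer. Subunit composition sets where a receptor sits: channels with a delta subunit lie outside synapses and give tonic inhibition, while gephyrin and neuroligin 2 gather others at the synapse. The chloride exporter KCC2 and importer NKCC1 set whether an open channel inhibits.

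Libraries fell into 2 sets by the numbering in their names, 24 with 24.5 to 37.7 M counts and 6 with 98 to 120.7 M, the latter holding no desipramine mouse. Summed CPM of 14 medium spiny neuron markers ran from 1270 to 9270, with a median of 6790, so these markers were detected in every library, at unequal levels. Summed CPM of 15 markers of septal, preoptic or hypothalamic neurons ran from 167 to 585, and of 11 markers of cortical excitatory neurons from 80.2 to 1320. A score for each list is the mean over its genes of log2 CPM, centred on the 30 libraries. SNI desipramine replicates 2 and 3 had the highest septal scores, 1.40 and 1.43, and the lowest medium spiny scores, -2.45 and -0.72. Sham tianeptine replicate 1 came next on the septal score at 1.23, with a medium spiny score of -0.37. The main results that rest on SNI desipramine replicates 2 and 3 are given with and without them. In bulk RNA, fewer cells of a type and less RNA per cell cannot be told apart.

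Windows of 250 bases upstream of the RefSeq start (build GRCm38.p6) were found for 25 of the 28 genes. The 3 genes that passed the adjusted test between SNI and sham, Slc6a11, Gabrq and Gabrg1, are shown with Gabre, which moved with Gabrq across libraries. They lie at chr6:114130991-114131240 on the plus strand for Slc6a11, chr5:70842618-70842867 on the minus strand for Gabrg1, chrX:72274722-72274971 on the minus strand for Gabre, and chrX:72824928-72825177 on the plus strand for Gabrq. Capitals mark matches on either strand to an E-box (CANNTG), a GC box (GGGCGG) or a homeodomain core (TAATTA).
Slc6a11: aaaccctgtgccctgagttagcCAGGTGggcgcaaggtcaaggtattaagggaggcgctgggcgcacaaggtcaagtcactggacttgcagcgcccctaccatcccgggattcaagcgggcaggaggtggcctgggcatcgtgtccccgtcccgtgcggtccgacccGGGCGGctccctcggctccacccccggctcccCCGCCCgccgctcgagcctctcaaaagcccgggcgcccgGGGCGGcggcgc
Gabrg1: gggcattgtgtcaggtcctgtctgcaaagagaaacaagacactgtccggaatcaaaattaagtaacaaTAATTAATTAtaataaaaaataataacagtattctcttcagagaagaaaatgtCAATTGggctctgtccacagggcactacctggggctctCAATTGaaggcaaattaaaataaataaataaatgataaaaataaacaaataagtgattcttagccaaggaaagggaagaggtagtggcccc
Gabre: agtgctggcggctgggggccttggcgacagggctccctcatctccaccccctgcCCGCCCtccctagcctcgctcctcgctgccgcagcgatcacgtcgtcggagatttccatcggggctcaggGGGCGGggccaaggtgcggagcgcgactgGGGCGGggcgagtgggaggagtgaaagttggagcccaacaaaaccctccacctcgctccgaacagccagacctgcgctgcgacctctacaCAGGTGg
Gabrq: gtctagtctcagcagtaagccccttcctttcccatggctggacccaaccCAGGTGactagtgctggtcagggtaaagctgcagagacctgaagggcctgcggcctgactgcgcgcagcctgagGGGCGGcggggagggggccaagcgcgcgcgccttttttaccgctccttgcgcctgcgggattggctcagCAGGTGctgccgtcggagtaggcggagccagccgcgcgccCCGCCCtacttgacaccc
The windows of Slc6a11, Gabre and Gabrq had a GC content of 71.2%, 68.8% and 67.2%, and that of Gabrg1 had 35.6%, against a median of 52.4% over 32851 windows. Slc6a11 and Gabre held 3 GC boxes each and Gabrq held 2, while Gabrg1 held none. Gabrg1 was the single window among the 25 with TAATTA, in 2 overlapping copies, a string found in 4.84% of all windows. A GC box was in 15 of the 25 and in 32.7% of all windows, and an E-box was in 16 and in 66.2%. TATAAA was in 3 of the 25 and in 12.4% of all windows, and TGACG was in 3 and in 17.8%. Such matches describe the letters only and are not evidence of binding.

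Levels per length, in CPM per kb of exon averaged over the 30 libraries, spanned a wide range. Gabarapl1, a GABARAP relative that also serves autophagy, was highest at 190 (SD 19.8, n = 30). Among the genes of GABA handling, Gad2 and Gad1, the enzymes that make GABA from glutamate, stood at 117 and 76.6. Slc32a1, the vesicular GABA transporter, stood at 93.2, and Abat, the transaminase that starts GABA breakdown, at 81.0. Aldh5a1, the next enzyme of that route, was lower at 18.9. Of the transporters on the cell surface, the astrocytic GAT3 gene Slc6a11 was at 46.9 and Slc6a13, the GAT2 gene known from meninges and liver, at 3.06.

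Among receptor genes, Gabbr1, the subunit that binds GABA in the GABA-B receptor, was at 103 CPM per kb, and its partner Gabbr2, which couples to the G protein, at 25.0. Gabrd, the delta subunit, led the measured ionotropic subunits at 35.7. Gabra3, Gabra4 and Gabrb2 followed at 25.7, 21.9 and 21.8, closer to each other than their SDs of 5.52, 5.54 and 6.03. Gabra2 was at 16.8, Gabrb1 at 14.1, Gabra5 at 9.30, Gabrg3 at 7.69 and Gabrg1 at 6.00. The theta subunit Gabrq, the rho subunit Gabrr2 and the epsilon subunit Gabre were lowest, at 1.67, 1.09 and 0.443. Slc12a5, which encodes KCC2, was at 97.9, against 8.02 for Slc12a2, which encodes NKCC1.

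**Figure D1:**
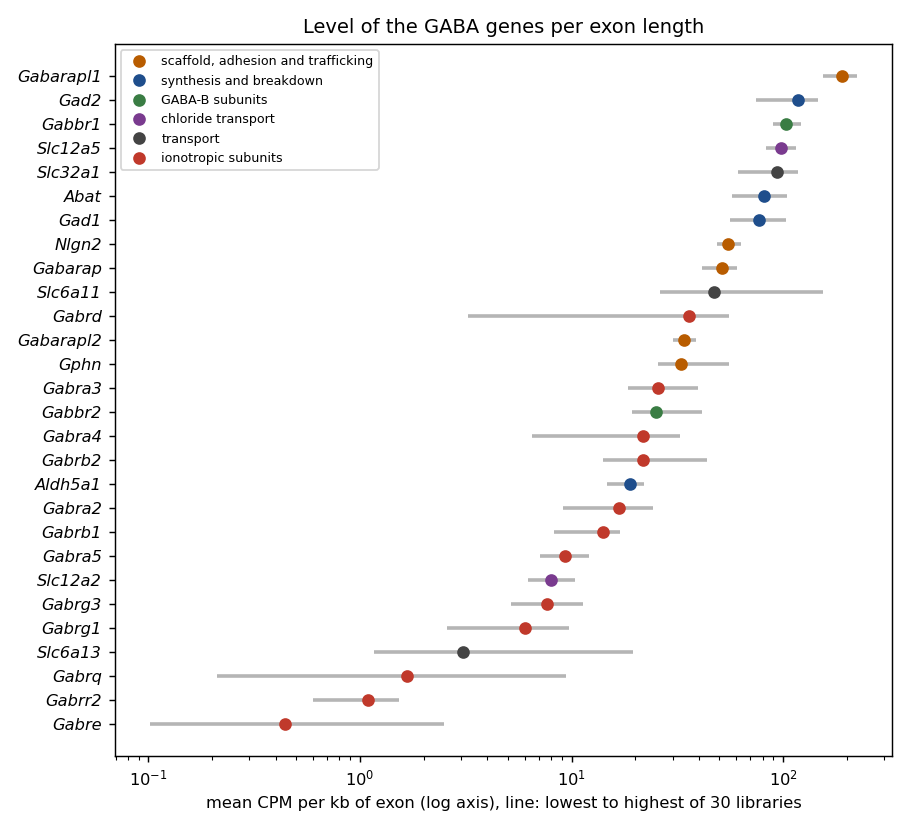
Level of each of the 28 genes in CPM per kb of exon on a log axis. Points are means over 30 libraries coloured by role, and grey lines run from the lowest to the highest library; the lines of Gabrd, Gabrq, Gabre and Slc6a13 are the longest.

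The genes differed in how far they varied between libraries. Nlgn2, Gabarapl2 and Gabbr1 differed by 1.30, 1.30 and 1.36 times between their highest and lowest library. The ratio was 44.7 for Gabrq, 24.5 for Gabre, 17.1 for Gabrd, 16.7 for Slc6a13, 5.91 for Slc6a11 and 5.01 for Gabra4. The lowest count in a library was 14 for Gabre and 48 for Gabrq, and 39 for Gabrr2, so counting error weighs more on the ratios of these 3 than on those of the abundant genes. Exons of Slc32a1 (697 bases), Aldh5a1 (999 bases) and Gabarapl1 (570 bases) overlap a gene on the opposite strand. Shorter overlaps were found for Gabra5 (148 bases), Gphn (147 bases), and Gabra4 and Gabrb1 (46 bases each). No source used here gives the strand setting of the counting, so the counts of all these genes are less certain.

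SNI was compared with sham as an average that weights the 3 treatments equally. On that average the astrocytic transporter Slc6a11 and the subunits Gabrq and Gabrg1 were higher in SNI. These were the 3 of 28 genes with an adjusted p under 0.05 in edgeR, where 1.84% of all genes tested passed. Log2 differences ran from -0.94 to 1.83, with 18 genes higher and 10 lower and a median of 0.07, against 0.00 for all genes, of which 50.7% were higher. At an unadjusted p under 0.05 there were 12 of 28, where 22.6% of all genes passed. DESeq2 called 5, where it called 6.75% of all genes, and limma-voom called 0.

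Slc6a11 encodes GAT3, through which astrocytes take up GABA. In sham mice its CPM on saline was 156, 170, 188, 135 and 131, on desipramine 187, 160, 189 and 155, and on tianeptine from 133 to 317 with a median of 176. In SNI mice it was 318, 141, 332, 287 and 158 on saline, 432, 778, 571 and 183 on desipramine, and from 156 to 269 with a median of 193 on tianeptine. The sham and SNI ranges overlapped under every treatment, and the 3 highest libraries were all SNI desipramine. On tianeptine the means were close, at 204 CPM in SNI (SD 45.3) and 202 in sham (SD 69.0). The log2 difference was 0.74 (SE 0.16, edgeR adjusted p = 0.0323).

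Gabrq encodes theta, a subunit known from hypothalamic and brainstem neurons. Its CPM in sham mice was 2.48, 2.003, 1.63, 4.91 and 1.52 on saline, 2.44, 2.12, 1.62 and 4.57 on desipramine, and 1.49 to 16.5 with a median of 3.47 on tianeptine. In SNI mice it was 9.08, 1.45, 32.1, 13.5 and 1.13 on saline, 9.72, 50.4, 45.0 and 4.11 on desipramine, and 1.67 to 12.1 with a median of 5.40 on tianeptine. High values came from some mice of a group, and sham tianeptine replicates 1 and 2 (14.7 and 16.5) exceeded most SNI mice. On tianeptine the mean was lower in SNI, at 6.15 CPM against 6.87 in sham, opposite to the medians. The log2 difference was 1.83 (SE 0.44, edgeR adjusted p = 0.0366).

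Gabrg1 encodes a gamma subunit that can replace the common synaptic one. Its CPM was 33.9, 20.3, 30.3, 35.7 and 41.4 in sham saline, 41.8, 28.8, 33.6 and 42.2 in sham desipramine, and 36.5 to 61.4 with a median of 44.4 in sham tianeptine. It was 47.3, 27.5, 75.3, 58.6 and 38.0 in SNI saline, 55.9, 76.5, 65.7 and 44.8 in SNI desipramine, and 45.1 to 60.9 with a median of 57.8 in SNI tianeptine. The ranges of SNI and sham overlapped on saline and on tianeptine. The log2 difference was 0.51 (SE 0.13, edgeR adjusted p = 0.0417).

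**Figure D2:**
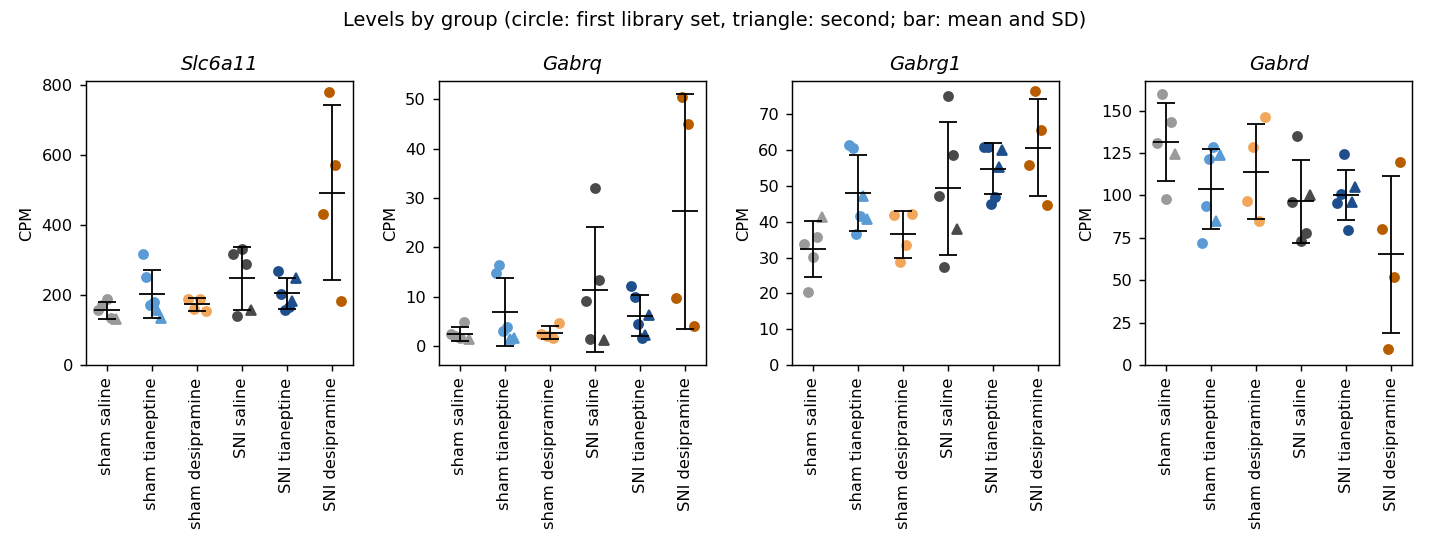
CPM of Slc6a11, Gabrq, Gabrg1 and Gabrd in each mouse by group; circles are libraries of the first set, triangles of the second, and bars show mean and SD. Slc6a11 reached 778 and Gabrq 50.4 in SNI desipramine replicate 2, in which Gabrd fell to 9.34.

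The next genes by p missed the threshold. They were Gabre (log2 difference 1.20, SE 0.37, edgeR adjusted p = 0.0692), Gabrb2, a beta subunit (0.32, SE 0.10, 0.0742), and Aldh5a1 (0.15, SE 0.05, 0.0949). The 4 genes of synthesis and breakdown were all higher in SNI, by 0.14 to 0.15, with 0 past the adjusted threshold in edgeR and 3 of 4 at an unadjusted p under 0.05. Neither GABA-B subunit nor any of the 5 scaffold and trafficking genes passed, the latter with differences from -0.09 to 0.04. Gabbr2 differed by less than its SE of 0.10, with a 95% interval from -0.21 to 0.21.

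Tissue scores of the same libraries also had unequal averages in SNI and sham mice, which was not tested. The septal, preoptic and hypothalamic score averaged 0.21 (SD 0.66, n = 15) in SNI and -0.21 (SD 0.49, n = 15) in sham. On saline it averaged -0.03 in SNI and -0.47 in sham, on tianeptine 0.02 and 0.11, and on desipramine 0.79 and -0.35. The cortical score averaged -0.46 (SD 1.52) in SNI and 0.46 (SD 1.38) in sham, and the medium spiny score -0.17 (SD 0.72) and 0.17 (SD 0.32). With these 3 scores in the model, the log2 difference was 0.19 for Slc6a11 (95% interval 0.03 to 0.36), 0.20 for Gabrq (-0.21 to 0.61), 0.17 for Gabrg1 (-0.01 to 0.36) and -0.21 for Gabre (-0.51 to 0.09). The edgeR adjusted p was then 0.98 for each of the 4, and 0 of 28 genes passed. The share of all genes that passed in this fit was not set beside that count. Without SNI desipramine replicates 2 and 3, the differences were 0.50 for Slc6a11, 1.16 for Gabrq and 0.41 for Gabrg1, with edgeR adjusted p of 0.396, 0.412 and 0.408.

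Within the first library set the differences were 0.67, 1.74 and 0.53 for Slc6a11, Gabrq and Gabrg1, each with an edgeR adjusted p of 0.152. The second set holds no desipramine mouse and 1 saline mouse per surgery, too few for values of its own. Slc6a11 lost its call without any one of 15 of the 30 libraries, Gabrq without 17 and Gabrg1 without 22. The libraries without which no GABA gene passed were SNI desipramine 2 and 3, SNI saline 1, 3 and 4, SNI tianeptine 1 and 6, all 4 of sham desipramine, sham saline 1 and 4, and sham tianeptine 3 and 6. The 3 directions were kept in all 30. Without SNI desipramine replicate 4, 8 of 28 genes passed, where 15.6% of all genes did.

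**Figure D3:**
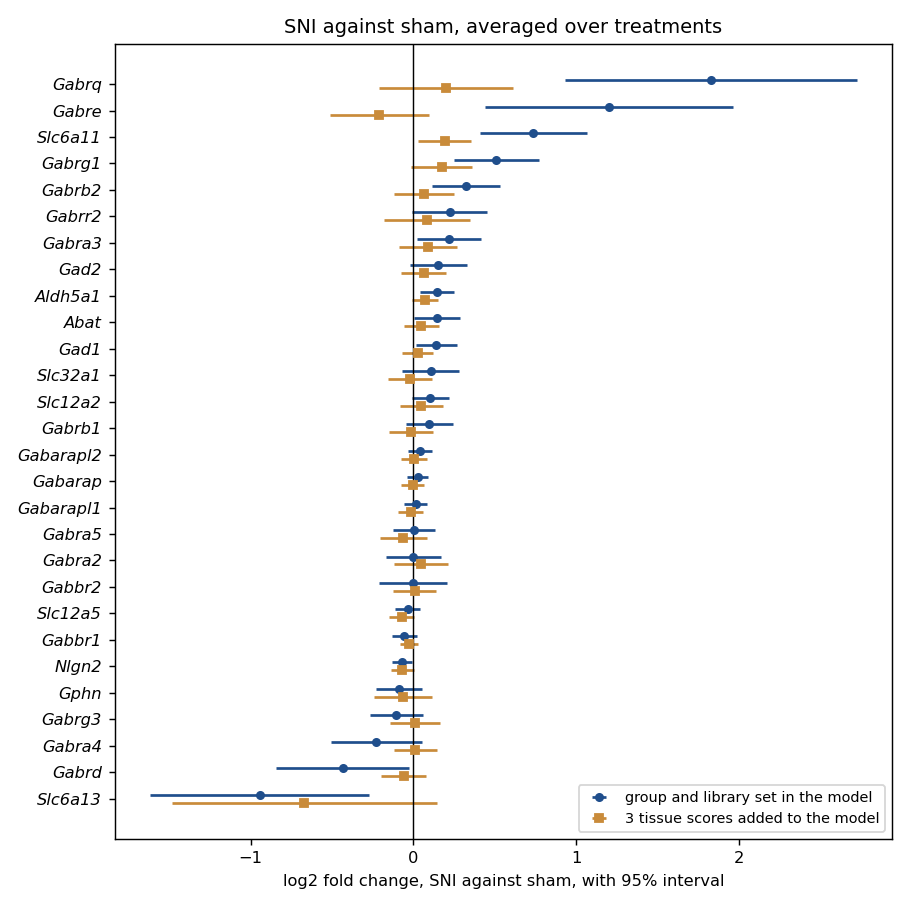
Log2 difference of SNI against sham, averaged over treatments, with 95% intervals for the 28 genes. Blue circles are from the model with group and library set and orange squares from the model with 3 tissue scores added; the value of Gabrq moves from 1.83 to 0.20 and that of Gabre from 1.20 to -0.21.

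On saline alone, SNI against sham gave 0 of 28 GABA genes past the adjusted threshold in edgeR, DESeq2 or limma-voom, and 7 at an unadjusted p under 0.05, where 9.74% of all genes passed. Differences ran from -1.63 to 1.89. Among the genes of smallest p were Gabrq (1.89, SE 0.76), Slc6a13 (-1.63, SE 0.56), Slc6a11 (0.65, SE 0.27) and Gabrg1 (0.60, SE 0.22), none past the adjusted test (edgeR adjusted p of 0.437 to 0.466). With tissue scores in the model the differences of Gabrq, Slc6a11 and Gabrg1 were 0.22, 0.17 and 0.27, and that of Slc6a13 was -1.37. Without SNI saline replicate 3 the difference of Gabrq was 1.12. Gabra5, an alpha subunit of extrasynaptic receptors, differed by 0.28 (SE 0.11, edgeR adjusted p = 0.443), or by 0.21 with tissue scores. The Slc6a13 value leaned on sham saline replicate 3, at 56.5 CPM against 3.44 to 11.2 in the other 4. The fibroblast and meninges score of that library was 2.91, against -0.59 to 0.35 in the other 4. Leaving out 1 library at a time moved the Slc6a13 difference between -1.94 and -0.52.

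Tianeptine was compared with saline within each surgery. In sham mice 0 of 28 genes passed the adjusted threshold in edgeR and 3 had an unadjusted p under 0.05, where 6.84% of all genes did. Those 3 were Gabrg1 (0.57, SE 0.21), Slc6a13 (-1.34, SE 0.56, with sham saline replicate 3 in the control) and Gphn, the gephyrin gene (0.23, SE 0.11). With tissue scores Gabrg1 differed by 0.21, Slc6a13 by -1.06 and Gphn by 0.26. Without sham saline replicate 3 Slc6a13 differed by -0.27. The Gphn value leaned on sham tianeptine replicate 3, at 207 CPM against a group median of 139; over the left-out libraries its difference ran from 0.08 to 0.30. In SNI mice 0 of 28 passed and 0 had an unadjusted p under 0.05 in edgeR, where 2.87% of all genes did, and differences ran from -0.35 to 0.39. DESeq2 and limma-voom called 0 in both.

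Intervals show what the tianeptine comparison in SNI mice could have missed. Gabarap, a trafficking gene, differed by -0.07 (95% interval -0.17 to 0.04) and Nlgn2 by 0.06 (-0.04 to 0.17). The widest intervals, of the low genes, reached from -1.83 to 1.51. Averaged over surgeries, 23 of 28 genes and 51.4% of all genes were higher on tianeptine, with a median of 0.05 for the 28, and 0 passed in edgeR, with 1 at an unadjusted p under 0.05 where 4.74% of all genes did. The tianeptine effect differed between SNI and sham for 0 of 28 genes (edgeR, 1 at an unadjusted p under 0.05, where 4.2% of all genes did). The comparisons within a surgery share their saline mice.

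Desipramine was also compared with saline within each surgery. In sham mice 0 of 28 genes passed in edgeR, DESeq2 or limma-voom and 2 had an unadjusted p under 0.05, where 7.63% of all genes did. Both were receptor genes, Gabbr2 (0.55, SE 0.18) and Gabra5 (0.35, SE 0.12), each with an edgeR adjusted p of 0.547. With tissue scores the differences were 0.38 and 0.36. Sham desipramine held Gabbr2 at 139 to 276 CPM, which overlaps the 132 to 159 of sham saline. All 4 genes of synthesis and breakdown were lower on desipramine in sham mice, by -0.05 to -0.15, with 0 past the adjusted or the unadjusted threshold in edgeR.

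In SNI mice 0 of 28 genes passed in edgeR and 5 had an unadjusted p under 0.05, where 17.5% of all genes did. DESeq2 called Slc6a11 alone, where it called 2.34% of all genes, and limma-voom called 0. Slc6a11 differed by 0.94 (SE 0.29, edgeR adjusted p = 0.118), Gabrb2 by 0.58 (SE 0.19, 0.123), Slc12a2 by 0.29 (SE 0.10, 0.149), Gad1 by 0.28 (SE 0.11, 0.207) and Gabre by 1.46 (SE 0.63, 0.234). All 4 genes of synthesis and breakdown were higher, by 0.14 to 0.28, opposite in sign to sham mice; 1 of the 4 had an unadjusted p under 0.05. Gad1 was at 626 to 789 CPM on desipramine and 429 to 641 on saline, ranges that meet at their ends.

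The SNI desipramine mice were not alike. Gabrd was at 79.9, 9.34, 51.8 and 120 CPM in replicates 1 to 4, and Gabre at 1.63, 11.8, 9.76 and 0.851. Replicate 4, with a septal score of -0.20, lay within the saline range for both genes and for Slc6a11. Without replicate 4, 5 of 28 genes passed in edgeR, where 13.9% of all genes did. Without replicates 2 and 3, 0 passed, and the share of all genes that passed was not set beside that count. The differences were then 0.25 for Slc6a11, 0.12 for Gabrb2, 0.13 for Slc12a2 and -0.83 for Gabre, the last with its sign turned. With tissue scores they were 0.17 for Slc6a11, 0.24 for Gabrb2, 0.20 for Slc12a2 and -0.38 for Gabre. Gad1 differed by 0.21 without replicates 2 and 3 and by 0.20 with tissue scores.

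Slc12a5 was the single gene whose libraries did not overlap between the drug and saline groups of a surgery, with desipramine higher in SNI mice, as for 1.02% of all genes. It was named after its values were seen. It stood at 774, 808, 794 and 737 CPM in SNI desipramine and at 703, 706, 720, 709 and 670 in SNI saline. The log2 difference was 0.13 (SE 0.07, edgeR adjusted p = 0.34).

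Averaged over surgeries, desipramine against saline gave 0 of 28 genes in edgeR, where 0.0295% of all genes passed (4 at an unadjusted p under 0.05, where 12.5% of all genes passed). Tianeptine against desipramine also gave 0, where 0.438% passed (1 at an unadjusted p under 0.05, where 14.2% passed). Gabbr2 differed there by -0.35 (SE 0.13, edgeR adjusted p = 0.22). The Gabbr2 difference was -0.13 with tissue scores and -0.25 without SNI desipramine replicates 2 and 3. The desipramine effect differed between SNI and sham for 0 of 28 genes in edgeR, with 5 at an unadjusted p under 0.05 where 12.3% passed. Slc12a2 (difference of effects 0.48, SE 0.14, edgeR adjusted p = 0.245) and Gabra5 (-0.54, SE 0.16, 0.248) had the smallest p. Without SNI desipramine replicate 4, Slc12a2 passed (0.54, edgeR adjusted p = 0.0348), with 3.98% of all genes. Without replicates 2 and 3 its difference was 0.32 (edgeR adjusted p = 0.9), and with tissue scores 0.40 (0.287). For Gabra5 it was -0.55 without replicates 2 and 3 and -0.62 with tissue scores (edgeR adjusted p = 0.9 and 0.175).

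Levels of many GABA genes moved with the tissue scores from mouse to mouse. The relation was taken within group and library set over 28 libraries, since the saline libraries of the second set stand alone, for 28 genes and 3 scores. Of these 84 relations, 34 had an adjusted permutation p under 0.05 for Pearson's r. The relations were not computed for other genes, so whether this share is particular to GABA genes is not known. With Spearman's rho also past it, 7 of 9 relations held for the medium spiny score, 8 of 12 for the septal score and 10 of 13 for the cortical score.

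The medium spiny score separated the subunits. Gabrd had r = 0.96 and rho = 0.93 (adjusted permutation p = 0.000168 and 0.00021), and r = 0.91 without the 2 libraries farthest from the median score. Gabra4, the alpha subunit that joins delta outside synapses, had r = 0.93 and rho = 0.85 (adjusted permutation p = 0.000168 and 0.00021; r = 0.83 without the 2). The GABA-B partners went opposite ways, with r = 0.76 and rho = 0.82 for Gabbr1 (adjusted permutation p = 0.000168 and 0.00028; r = 0.76 without the 2) and r = -0.67 and rho = -0.80 for Gabbr2 (0.00028 and 0.00168; r = -0.82).

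The septal, preoptic and hypothalamic score was related to Gabre, Gabrq, Slc6a11 and Gabrg1. Gabre had r = 0.96 and rho = 0.96, and Gabrq r = 0.90 and rho = 0.90 (adjusted permutation p = 0.000168 and 0.00021 for both), with r = 0.94 and 0.84 without the 2 farthest libraries. Slc6a11 had r = 0.86 and rho = 0.77 (adjusted permutation p = 0.00136 and 0.00486; r = 0.77 without the 2). Its relation to scores of other cell types, astrocytes among them, was not computed. Gabrg1 had r = 0.81 and rho = 0.79 (0.00056 and 0.00115 by permutation, adjusted; r = 0.73). Gabrd ran the other way (r = -0.60, rho = -0.52, adjusted permutation p = 0.0482 and 0.059; r = -0.46 without the 2). All 3 genes called between SNI and sham were among the 12 of 28 genes past the threshold for r with this score. The same 3 were past it with the cortical score, with r = -0.46 for Slc6a11, -0.72 for Gabrq and -0.56 for Gabrg1. With the medium spiny score Slc6a11 (r = -0.72) and Gabrg1 (r = -0.47) were past it, and Gabrq (r = -0.42) was not.

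The cortical score was negatively related to all 4 genes of synthesis and breakdown and to Slc32a1. Gad1 had r = -0.76 and rho = -0.75 (adjusted permutation p = 0.000525 and 0.00115; r = -0.71 without the 2 farthest libraries). For Abat the values were r = -0.77 and rho = -0.74 (0.000924 and 0.00131 by permutation, adjusted; r = -0.67), and for Slc32a1 r = -0.74 and rho = -0.70 (0.00115 and 0.00275; r = -0.63). Gad2 had r = -0.66 and rho = -0.66 (adjusted permutation p = 0.0027 and 0.00486; r = -0.53), and Aldh5a1 r = -0.75 and rho = -0.71 (0.00302 and 0.00594; r = -0.68). Cortical and septal scores were themselves related (r = -0.56, rho = -0.53, permutation p = 0.00323 and 0.00959), so relations to the one are not separate from those to the other.

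**Figure D4:**
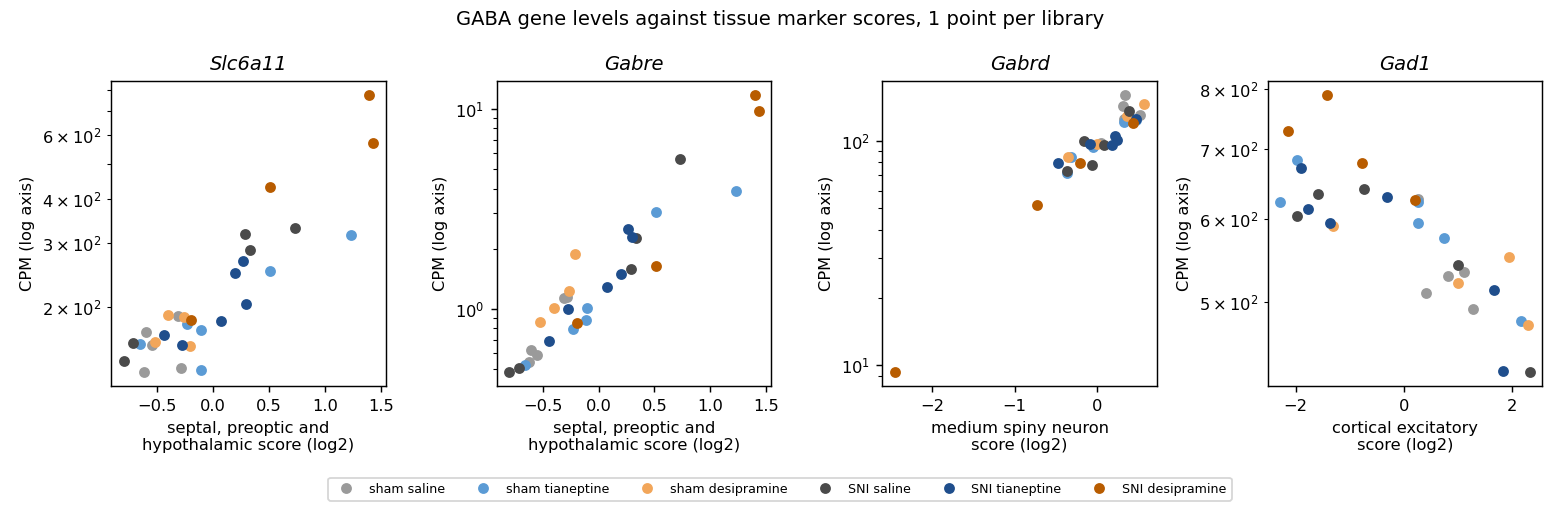
CPM on a log axis against a tissue marker score, 1 point per library coloured by group, for 4 genes. Slc6a11 and Gabre rise with the septal score, Gabrd rises with the medium spiny score down to SNI desipramine replicate 2 at a score of -2.45, and Gad1 falls with the cortical score.

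**Figure D5:**
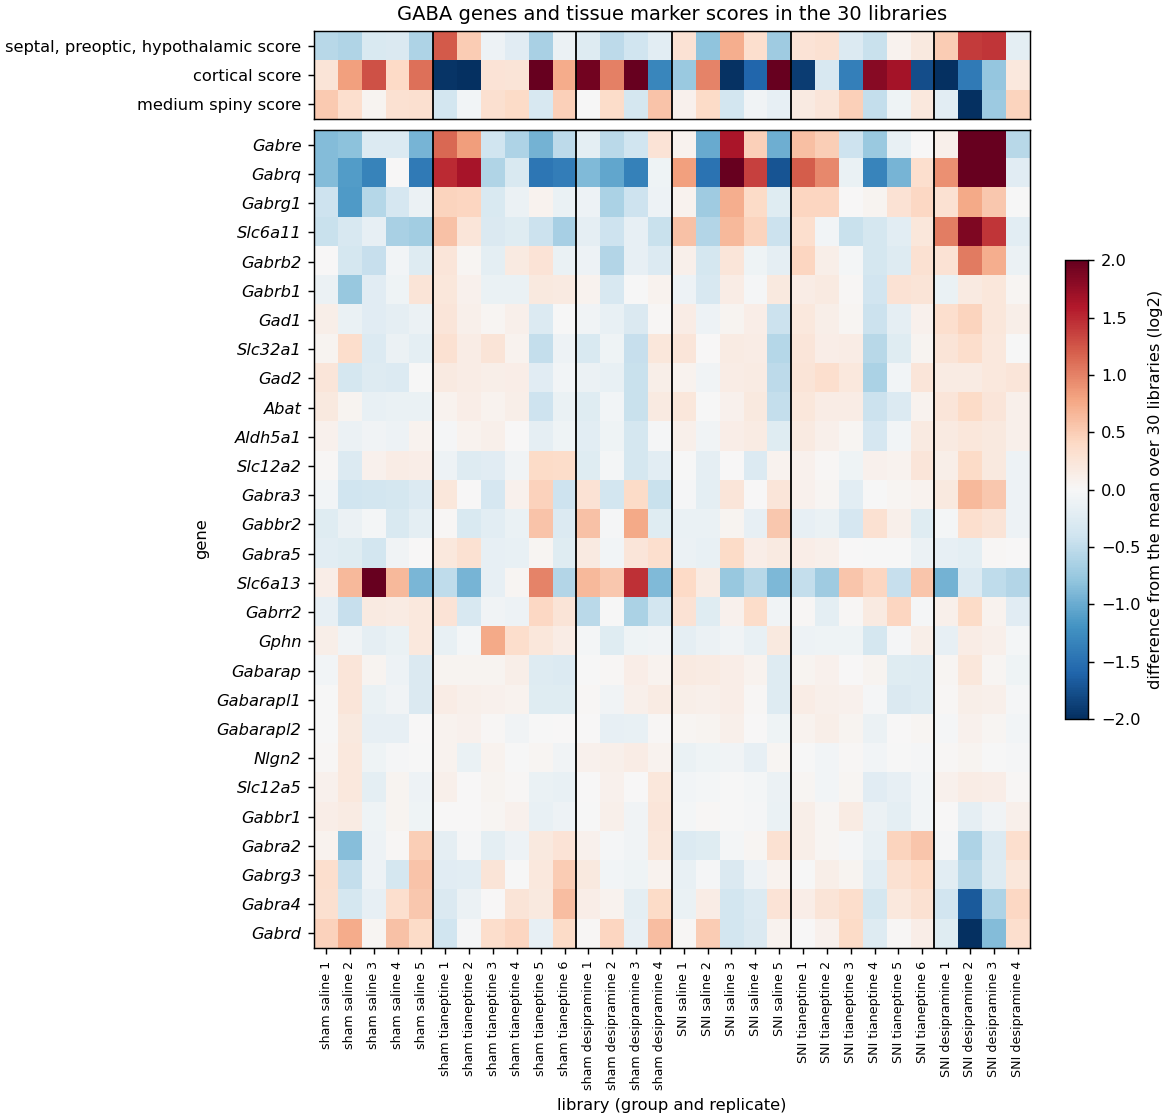
Difference of log2(CPM + 0.5) from its mean over 30 libraries for the 28 genes, below the 3 tissue scores, with colours limited at 2 and -2. The red blocks of Gabre, Gabrq and Slc6a11 in SNI desipramine replicates 2 and 3 stand above blue blocks of Gabra4 and Gabrd in the same columns.

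Several subunit genes lie in clusters, so neighbours were compared; these 7 pairs were chosen after the data were seen. Gabre and Gabrq, 550.4 kb apart on chromosome X with Gabra3 between them, had r = 0.93 and rho = 0.91 within group and set (adjusted permutation p = 0.00014 and 0.00035; r = 0.90 without the 2 farthest libraries). Gabra3 had r = 0.42 with Gabre and 0.41 with Gabrq, neither past the adjusted threshold (adjusted permutation p = 0.091 and 0.0713). On chromosome 5, Gabra2 and Gabra4 had r = 0.74 and rho = 0.54 (adjusted permutation p = 0.00434 and 0.0484; r = 0.53). Gabra4 and Gabrb1, whose first exons overlap on opposite strands, had r = 0.05 and rho = -0.04.

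The trafficking genes differed by library set. Gabarap was at 76.4 to 78.9 CPM and Gabarapl1 at 312 to 321 in the 6 libraries of the second set. All 24 libraries of the first set were higher, without overlap, for both genes, as for 5.07% of all genes. This comparison was added after the data were seen, and the model holds a term for the library set.

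Among 40 tested genes of a wider list around GABA (receptor auxiliary proteins, chloride kinases, glutamine supply), 2 passed between SNI and sham averaged over treatments in edgeR, where 1.84% of all genes did. Insyn2a, an inhibitory synapse protein, was higher by 0.58 (SE 0.15, adjusted p = 0.043), and Trak1, a mitochondrial transport adaptor, fell by 0.12 (SE 0.03, adjusted p = 0.0483). With tissue scores Insyn2a differed by 0.17 and Trak1 by -0.06 (edgeR adjusted p = 0.983 for both), and without SNI desipramine replicates 2 and 3 by 0.48 and -0.11 (0.408). In the other comparisons 0 of 40 passed in edgeR, with 0 to 8 at an unadjusted p under 0.05, where 2.87% to 17.5% of all genes did. The smallest p in SNI mice on desipramine were those of Iqsec3, a gephyrin partner (0.64, SE 0.17, edgeR adjusted p = 0.0893), and Slc38a1, a glutamine transporter (0.57, SE 0.16, 0.0973). Their values with tissue scores or without SNI desipramine replicates 2 and 3 are not given.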

How the data were processed

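The authors deposited whole-number counts per gene for 30 libraries and FPKM values of the same genes. The tools named in the submitters' processing notes are Trim Galore, HISAT2, SAMtools and featureCounts, with mm10 as the build and no versions. The labels' protocols name TRIzol extraction and a stranded mRNA kit. The deposited FPKM divide by whole gene span in 99.4% of 44277 genes, so levels per length were recomputed from exons.

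Of the gene IDs, 260 had no match in GENCODE M21 and held 0.0509% of counts. Counts were tested in edgeR 4.0.16 (R 4.3.3, limma 3.58.1), with filterByExpr (23736 genes), TMM and a robust quasi-likelihood model of group and library set on 23 residual degrees of freedom. All tests were 2-sided, and p were adjusted over every gene tested (Benjamini-Hochberg, threshold 0.05). DESeq2 1.42.0 and limma-voom were alternatives. The share of all genes called is given for DESeq2 only where it called a GABA gene, and is not given for limma-voom. Log values use a prior count of 2. Permutation tests drew 100000 permutations, so 1e-05 is the smallest unadjusted p they can give. Methods were tested on simulated data. No pair of libraries was a near copy (smallest chi-square per degree of freedom 7.51). Members and lists were chosen with earlier results of these data known. Genes were named by a fixed rule: those past the threshold, otherwise up to 6 of smallest p per comparison. Outside that rule, Gabbr2 was named for SNI against sham averaged over treatments, and Slc12a5 for desipramine against saline in SNI.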

Additional observations from a re-analysis of the deposited data

Results flagged for a closer look

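In 9 of 168 gene and group combinations, 1 mouse lay far from the others of its group by Dixon's criterion, a share of 5.36%, where chance gives about 1 in 20. Slc6a13 was at 56.47 CPM in sham saline replicate 3, against 3.443 to 11.21 in the others, and at 14.4 in sham tianeptine replicate 5, against 3.414 to 7.165. The fibroblast and meninges score was the highest of its group in both libraries, at 2.91 and 1.05. Its part in the Slc6a13 values was not tested.

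Of the 9, 3 came from SNI saline replicate 5, the single library of the second set in its group. Gabbr2 was at 238 CPM there against 146.1 to 169.8, Gphn at 139.6 against 108 to 116.4, and Gabarapl1 at 318.1 against 388.6 to 416.7. Gabbr2 also stood at 242 in sham tianeptine replicate 5, another library of that set, against 131.5 to 165.3. Single mice accounted for the rest. Gabra3 was at 85.49 in SNI tianeptine replicate 3 against 98.06 to 104.8, Gabra4 at 100.3 in SNI tianeptine replicate 4 against 139.5 to 162.4, and Gabrq at 4.913 in sham saline replicate 4 against 1.523 to 2.481.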

How the results depend on the processing

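For SNI against sham averaged over treatments, the number of GABA genes past the threshold was 3 and stayed at 3 with the size factors of DESeq2. It was 5 in DESeq2, 1 without the library set term, and 0 in limma-voom, without a filter on low counts, in the first library set alone, with the replicate block, with tissue scores as covariates, without SNI desipramine replicates 2 and 3, and without sham saline replicates 2 and 3. Leaving out 1 library at a time gave 0 to 8, the 8 without SNI desipramine replicate 4, where 15.6% of all genes passed. For desipramine against saline in SNI, the number was 0, 1 in DESeq2, and 0 to 5 with 1 library left out. The desipramine by surgery interaction gave 0 to 1. In the other comparisons the number was 0 under every alternative run. Except where given, the share of all genes passing was not set beside these counts. The causes of these changes were not tested.

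Gabre turned its sign in 3 cases. Its difference for desipramine in SNI was -0.38 with tissue scores and -0.83 without SNI desipramine replicates 2 and 3, and its difference between SNI and sham was -0.21 with tissue scores. Same-numbered mice of different groups had a median correlation of -0.00844, with 16 of 60 pairs over 0.1. The median for mice of other numbers was 0.00979. By this measure same-numbered mice were not more alike, but it cannot decide whether replicate numbers pair the mice. No replicate number occurred in both library sets. The replicate block that brought the 3 calls to 0 therefore also carries the library set. Relations to tissue scores past the threshold numbered 34, and 33, 31 and 29 with another prior count, with DESeq2 factors and in the first library set. Depth limited Gabre most, with 14 counts in its lowest library.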
